A study of Mus musculus with 16 samples.

Results

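Peroxiredoxins and thioredoxins remove peroxides from cells. The genes described here are Prdx1, Prdx2, Prdx3, Prdx4, Prdx5 and Prdx6, the thioredoxins Txn1 and Txn2, the thioredoxin reductase gene Txnrd1 and the glutathione peroxidase gene Gpx1. They were chosen by name, and each was followed in the deposited interval with the highest mean CPM (reads scaled to library size): 10 genes of 21177 in the table. All 10 were among the 7411 genes tested, those with a rate above 0 in at least 12 of the 16 libraries. A peroxiredoxin reduces a peroxide with a cysteine that is oxidised in turn. In most peroxiredoxins thioredoxin reduces that cysteine, and thioredoxin reductase recharges thioredoxin with electrons from NADPH. Gpx1 reduces peroxides with glutathione instead. Several of these genes are textbook targets of the transcription factor NRF2, and myeloid cells, which make reactive oxygen species themselves, express many of them.

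The samples were mouse leukemia cells of 2 genotypes, WT and YBX1-/-, taken from bone marrow of the strain C57BL/6 according to the labels. YBX1 binds RNA, and the series asks how it affects the stability of transcripts in myeloid leukemia. Both groups received 50 µM 4-thiouridine (4sU), a nucleoside that marks RNA made in its presence, for 24 h and were then chased in 10 mM uridine. In SLAM-seq, marked RNA is read out as T-to-C changes, and the deposited rate of these changes is given here in percent. Each genotype had 1 library at each of 0, 0.5, 1, 3, 6, 12, 18 and 24 h, 16 in all. The labels do not say how the leukemia or the deletion was made, the age of the animals, or whether the time points came from separate cultures. With no replicate at any time point, every p-value measures scatter between time points and not between animals. A falling rate can come from decay of marked transcripts or from dilution by new ones, so "half-life" refers to the label.

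Depth per library is unknown, so no counting interval is given. Of the 13 myeloid markers, 13 had a mean CPM over 1 (median 49.8), against 1 of 5 lymphoid, 1 of 4 erythroid, 3 of 3 megakaryocyte and 1 of 4 stromal markers. These CPM values are means over all libraries, so the part of other cells in a genotype difference was not tested. In bulk RNA, fewer cells of a type and less RNA per cell cannot be told apart. Ybx1, the targeted gene, was labelled in either group: 72% in YBX1-/- and 55.2% in WT at 0 h, and 3.08% and 5.08% at 24 h. Its interval lies at the 3′ end of the gene, which may be outside the deleted part, so it does not check the labels. The YBX1-/- library at 0 h stood apart from its neighbours in time, with 3.64% of tested genes at a rate of 0, against 0.0945% in WT at 0 h and in YBX1-/- at 0.5 h. The median rate of tested genes was lower in YBX1-/- from the start, 33.3% against 42.9% at 0 h and 29.8% against 43.6% at 1 h.

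All 10 intervals lay in annotated untranslated sequence of their own gene (GENCODE, mouse build GRCm38), and the number of Ts in that sequence equalled the deposited T content in all 10. The intervals of Prdx5 and Prdx6 also ran into coding sequence of some isoform, over 41.9% and 15.1% of their length. The polyadenylation signal AATAAA was present in all 10, on the strand of the RNA, as in 83.3% of the 7396 tested intervals with a sequence. Of one of the slowest genes and of the fastest, by the half-life with a floor given further on, the last signal before the transcript end is shown with its letters in capitals.

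Txn1, chr4:57943373-57943394, minus strand: ccttaataAATAAAcatggtcc

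Txnrd1, chr10:82897684-82897705, plus strand: tgtgaaccAATAAAagatgttg

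The interval of Prdx2 held 3 such signals, a number reached by 7.33% of the 887 tested intervals of similar length (within 20%). They are shown because more than 1 transcript end may lie inside the interval, and the deposited table lists an interval that ends just after the middle one as well as the whole.

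Prdx2, chr8:84974286-84974307, plus strand: aggaaaccAATAAAgtattagg

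Prdx2, chr8:84974638-84974659, plus strand: agacatgaAATAAAtacttctg

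Prdx2, chr8:84974785-84974806, plus strand: tggatgggAATAAAaactaaag

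The AU-rich pentamer ATTTA, known from short-lived mRNAs, occurred in 70% of tested intervals and in those of Prdx1, Prdx3, Txn1 and Txnrd1. Txnrd1 held 4, among them an overlapping pair; at least 4 were present in 35.4% of the 1115 tested intervals of similar length. Txn1, among the slowest, held 2. The capitals mark 1 ATTTA in each window.

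Txnrd1, chr10:82897450-82897470, plus strand: tcagttttATTTAtttatttt

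Txnrd1, chr10:82897454-82897474, plus strand: ttttatttATTTAttttttaa

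Txn1, chr4:57943706-57943726, minus strand: atggcctgATTTAgtccccta

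Pentamers of the m6A consensus, a mark on mRNA to which YBX1 has been linked, were also searched on the RNA strand. GGACT was present in 64.2% of tested intervals, GAACT in 65.7% and AGACT in 68.9%, and Prdx2, Prdx4, Prdx5, Txn1 and Gpx1 held none of them. Among tested intervals of similar length these shares were lower, in the same order 4.08%, 4.08% and 12.2% for Prdx4. They were 21.6%, 16.9% and 25.5% for Gpx1, and 27.8%, 21.2% and 28.1% for Prdx5. For Txn1 they were 44.8%, 44.7% and 48.3%, and for Prdx2 56.6%, 56.6% and 57.4%. Prdx1 held 6 GAACT, a number reached by 0.799% of the 1126 tested intervals of similar length. The window with 1 of the 6 is shown, GAACT in capitals. TGTANATA, the Pumilio motif, was in none of the 10 and in 26.5% of tested intervals. Among those of similar length its share ran from 2.04% for Prdx4 to 28.6% for Prdx1.

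Prdx1, chr4:116700284-116700304, plus strand: tcaaggagGAACTgaagcaga

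Gpx1 and Txnrd1 encode selenoproteins, in which an in-frame TGA is read as selenocysteine. The TGA, in capitals, sat 154 codons before the end of the annotated coding sequence in Gpx1 and 1 codon before it in Txnrd1.

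Gpx1, chr9:108339451-108339453 for the codon, plus strand: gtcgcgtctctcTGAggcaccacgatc

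Txnrd1, chr10:82896037-82896039 for the codon, plus strand: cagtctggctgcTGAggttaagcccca

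Label was lost from 9 of the 10 genes in each genotype (limma, adjusted p under 0.05), against 94.7% of tested genes in WT and 92.6% in YBX1-/-. Prdx4 missed the threshold in both, with adjusted p of 0.367 in WT and 0.0972 in YBX1-/- by limma. In YBX1-/- it passed without the 0 h library of that genotype (-0.31 log2 per h, adjusted p 0.0029), without the 24 h time point (-0.40, 0.0195) and with 0.5 added in place of 0.1 (-0.16, 0.043). Over 0 to 6 h alone Prdx5 missed it too, with adjusted p of 0.133 in WT and 0.0694 in YBX1-/- by limma. This left 8 of 10 in each genotype, against 80.3% of tested genes in WT and 82.4% in YBX1-/- for that window. Most of the 10 held their label longer than the typical gene over the first hours. At 3 h the median tested gene kept 45% of its mean first-hour rate (0 to 1 h) in WT and 54.7% in YBX1-/-. Only Txnrd1 was below those medians, in both genotypes. The median straight-line slope of the 10 over the whole chase was -0.23 log2 per h in YBX1-/- and -0.24 in WT, against -0.25 and -0.27 for all tested genes.

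**Figure D1:**
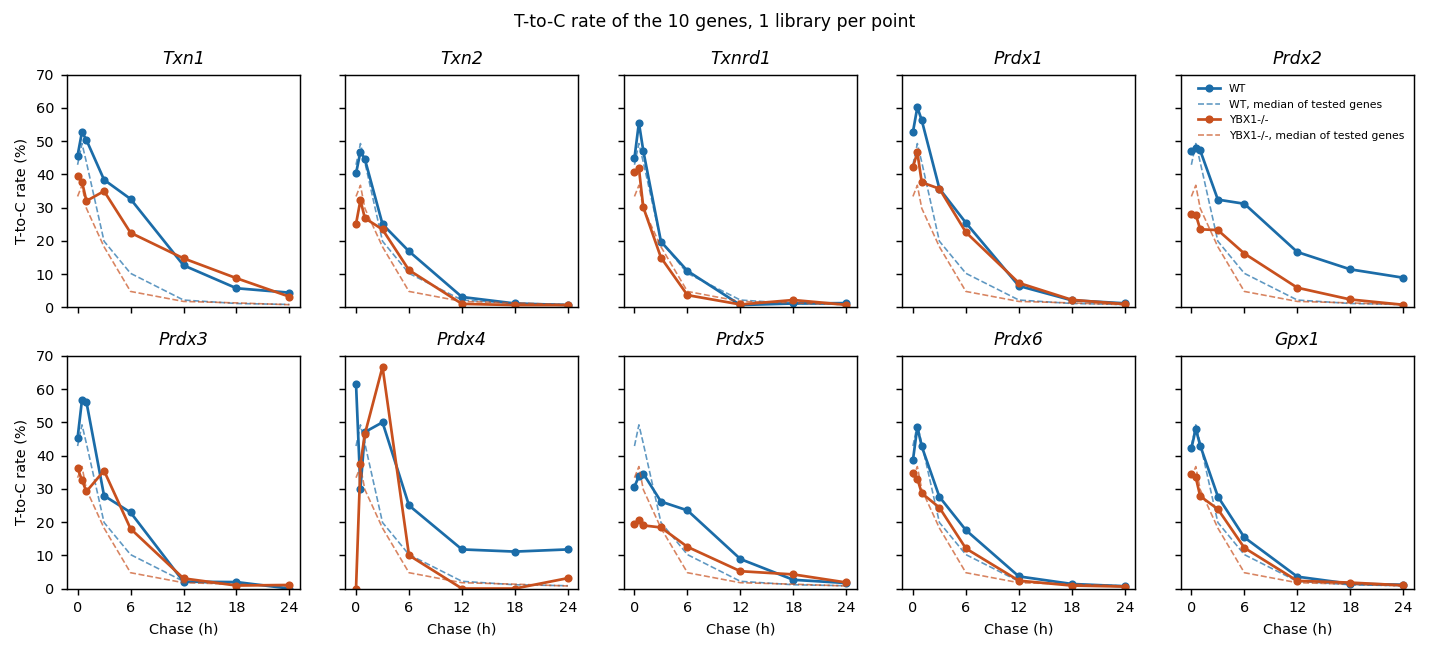
T-to-C rate in percent against hours of chase for each of the 10 genes, 1 library per point, with the median of the 7411 tested genes dashed (blue WT, orange YBX1-/-). In WT, Txn1, Prdx1, Prdx2, Prdx4, Prdx5 and Gpx1 stayed above the dashed median from 3 h, and Txnrd1 ran close to it.

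By the half-life with a floor, the thioredoxin system held the fastest of the 10 and one of the slowest. Txn1, the cytosolic thioredoxin (ENSMUSG00000028367, chromosome 4, 57943373 to 57943904), had WT rates of 45.6%, 52.7%, 50.3%, 38.3%, 32.6%, 12.6%, 5.72% and 4.4% from 0 to 24 h. The rates in YBX1-/- were 39.4%, 37.7%, 32.0%, 34.9%, 22.4%, 14.7%, 8.74% and 3.18%. YBX1-/- was the lower at 6 of 8 time points and the higher at 12 and 18 h. At 24 h Txn1 still stood at percentile 92.8 of tested genes in WT and at percentile 94.2 in YBX1-/-. An exponential with a constant floor gave a half-life of 6.80 h in WT (6.14 to 7.26 over fits that each dropped a time point) and 8.23 h in YBX1-/- (7.99 to 8.60).

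Txnrd1, the cytosolic reductase that recharges Txn1 (ENSMUSG00000020250, chromosome 10, 82896046 to 82897712), lost its label much sooner. Its WT rates were 44.9%, 55.5%, 47.0%, 19.7%, 10.9%, 0.668%, 1.14% and 1.25%, and those in YBX1-/- were 40.7%, 41.8%, 30.1%, 14.9%, 3.65%, 0.838%, 2.18% and 0.738%. It started level with Txn1, and by 6 h it kept 22.2% of its first-hour rate in WT and 9.74% in YBX1-/-, where Txn1 kept 65.7% and 61.6%. The half-life was 2.65 h in WT (1.80 to 3.06) and 1.91 h in YBX1-/- (1.49 to 2.0). These values rest on the form of the fit, since a straight line through log2 rates, which weighs the late low values more, gave 3.86 h and 4.23 h. By that line Prdx3, Txn2 and Prdx6 were faster than Txnrd1 in both genotypes, at 2.83 h, 3.75 h and 3.84 h in WT and 4.11 h, 3.83 h and 3.86 h in YBX1-/-.

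Txn2, the mitochondrial thioredoxin (ENSMUSG00000005354, chromosome 15, 77915047 to 77915743), had WT rates of 40.3%, 46.8%, 44.6%, 25%, 16.8%, 3.09%, 1.15% and 0.670%. Those in YBX1-/- were 25.1%, 32.3%, 26.8%, 23.4%, 11.2%, 1.03%, 0.662% and 0.652%, lower at 8 of 8 time points. Its half-life, 3.86 h in WT (3.18 to 4.08) and 4.43 h in YBX1-/- (3.70 to 5.05), lay between those of Txnrd1 and Txn1 and below Txn1 in every fit that left out a time point.

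Prdx1 to Prdx4 encode the typical 2-Cys peroxiredoxins, which work as dimers. Those of the cytosol and of mitochondria are reduced by thioredoxin. Prdx1, the abundant cytosolic form (ENSMUSG00000028691, chromosome 4, 116699257 to 116700822), had WT rates of 52.7%, 60.2%, 56.2%, 35.7%, 25.4%, 6.42%, 2.1% and 1.20%. In YBX1-/- they were 42.1%, 46.6%, 37.6%, 35.7%, 22.6%, 7.32%, 2.24% and 0.952%. The genotypes lay furthest apart in the first hour and met at 3 h. Half-lives were 4.44 h in WT (3.86 to 4.70) and 5.41 h in YBX1-/- (5.03 to 5.78).

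Prdx3, the mitochondrial form that Txn2 reduces (ENSMUSG00000024997, chromosome 19, 60864051 to 60864665), had WT rates of 45.3%, 56.7%, 56.1%, 27.9%, 22.9%, 2.06%, 1.94% and 0%. In YBX1-/- they were 36.2%, 32.6%, 29.2%, 35.4%, 18.0%, 3.05%, 0.901% and 1.08%. The YBX1-/- rate at 3 h was above the WT rate and above 2 of the 3 earlier YBX1-/- values. Half-lives were 4.00 h in WT (3.17 to 4.41) and 5.44 h in YBX1-/- (4.62 to 6.30). The rate of 0 in WT at 24 h may be a lack of converted reads or of reads.

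Prdx4, the form of the endoplasmic reticulum (ENSMUSG00000025289, chromosome X, 155323918 to 155323977), was barely measured. Its interval of 60 bases had a mean CPM of 0.949 and a coverage on Ts at the 0.7th percentile of tested genes. WT rates were 61.5%, 30%, 47.1%, 50.0%, 25%, 11.8%, 11.1% and 11.8%, and those in YBX1-/- were 0%, 37.5%, 46.4%, 66.7%, 10.0%, 0%, 0% and 3.12%. The values jumped between neighbouring time points in both genotypes, and the half-life fit explained 29.9% of the variance in YBX1-/-, so its half-life is left out of the comparison of half-lives between genotypes.

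Prdx2, the other cytosolic form, abundant in red cells (ENSMUSG00000005161, chromosome 8, 84974086 to 84974834), was the gene whose genotypes parted. Its WT rates were 46.9%, 47.9%, 47.2%, 32.4%, 31.1%, 16.6%, 11.4% and 8.89%. In YBX1-/- the rates were 28.0%, 27.9%, 23.5%, 23.2%, 16.2%, 5.88%, 2.35% and 0.755%. YBX1-/- was lower at all 8 time points, as it also was for Prdx6 and Txn2. At 24 h the WT rate stood at percentile 97.2 of tested genes and the YBX1-/- rate at percentile 49.2. The WT curve was fitted with a floor of 5.25% and a half-life of 6.51 h (4.94 to 7.76), and a straight line gave 9.44 h. In YBX1-/- the half-life was 6.06 h (5.71 to 6.44) and 4.78 h by the straight line. The ranges of the half-life with a floor overlapped between the genotypes.

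Prdx5 encodes the atypical 2-Cys form, which works as a monomer (ENSMUSG00000024953, chromosome 19, 6906706 to 6906951). Its WT rates were 30.7%, 33.8%, 34.6%, 26.2%, 23.5%, 8.87%, 2.62% and 1.66%, and those in YBX1-/- were 19.5%, 20.6%, 19.0%, 18.4%, 12.5%, 5.21%, 4.25% and 1.82%. It began with the lowest mean first-hour rate of the 10 in both genotypes, 33.0% and 19.7%. It then lost little, keeping 71.2% of that in WT and 63.6% in YBX1-/- at 6 h. Half-lives were 6.86 h in WT (6.13 to 7.43) and 7.44 h in YBX1-/- (7.01 to 8.20), ranges that overlap.

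Prdx6 encodes the 1-Cys form, which is reduced with glutathione (ENSMUSG00000026701, chromosome 1, 161241015 to 161241849). WT rates were 38.6%, 48.6%, 42.7%, 27.6%, 17.6%, 3.65%, 1.38% and 0.686%, and those in YBX1-/- were 34.8%, 33.0%, 28.7%, 24.4%, 12.1%, 2.37%, 0.898% and 0.592%. Gpx1, the glutathione peroxidase (ENSMUSG00000063856, chromosome 9, 108340137 to 108340343), ran almost with it. The WT rates of Gpx1 were 42.2%, 48.0%, 43.0%, 27.7%, 15.4%, 3.57%, 1.43% and 1.15%, and those in YBX1-/- were 34.3%, 33.4%, 27.8%, 23.9%, 12.2%, 2.31%, 1.79% and 0.973%. The half-lives of Prdx6 were 4.19 h in WT and 4.01 h in YBX1-/-, and those of Gpx1 were 3.82 h and 4.07 h. For both genes the ranges with a time point left out overlapped between the genotypes.

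**Figure D2:**
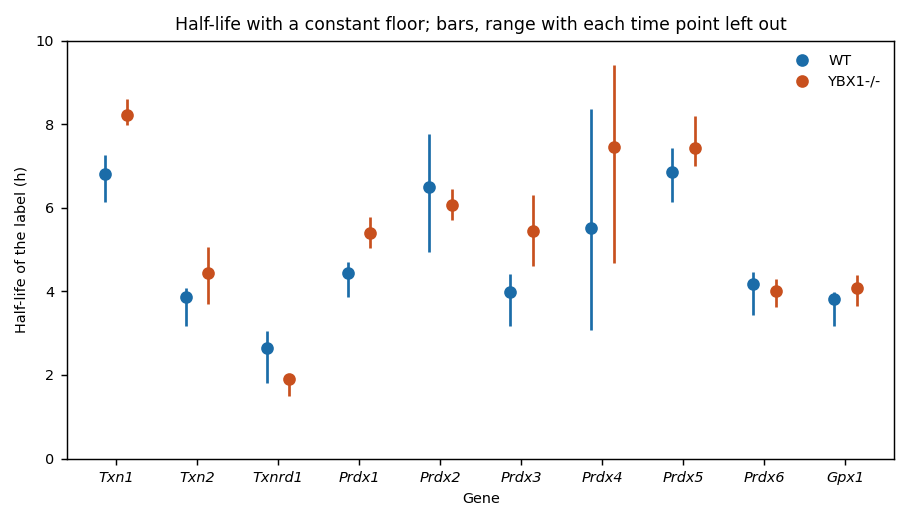
Half-life of the label in hours for each gene and genotype from an exponential with a constant floor, with bars for the lowest and highest value over fits that left out 1 time point. Txn1 and Prdx5 lay above 6 h in both genotypes, Txnrd1 at or below 3.06 h, and the bars of Prdx1, Prdx3 and Txn1 did not overlap between genotypes. The curve was not fitted to other tested genes, so no background share is given.

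With Prdx4 left aside, the half-life with a floor was longer in YBX1-/- for 6 of 9 genes and longer in WT for Prdx2, Prdx6 and Txnrd1. Among these 9 the fitted floor vanished in all but Prdx2 in WT (5.25%) and Txnrd1 in YBX1-/- (0.633%). The genotypes of Prdx2 and of Txnrd1 are thus compared by curves of unlike form. By the straight line the half-life was longer in YBX1-/- for 8 of these 9, all but Prdx2, with Prdx6 (3.86 h against 3.84 h) and Txnrd1 (4.23 h against 3.86 h) turned round. The same held for 65.7% of tested genes, and the median straight-line half-life of tested genes was 4.05 h in YBX1-/- and 3.71 h in WT. For Prdx1, Prdx3 and Txn1 the ranges with 1 time point dropped did not overlap. The comparison of half-lives between genotypes has no test, and the ranges cover the choice of time points only. Each curve and line had its own starting level, but the rates were not taken relative to the library median. In the order of half-lives, the ranges of Prdx2, Txn1 and Prdx5 overlapped in WT, and those of Txn2, Gpx1, Prdx3 and Prdx6 overlapped in WT as well.

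The tests between genotypes used log2(rate + 0.1 percentage points) with the median of each library subtracted, so each value is relative to the other genes of its library. The decay difference (YBX1-/- minus WT, in log2 per h) passed the limma threshold for 0 of the 10 genes, with 0.0405% of tested genes called higher and 0.0675% called lower. At an unadjusted p under 0.05 by limma stood 1 of the 10, against 929 tested genes (12.5%). Prdx2 came nearest, at -0.12 (SE 0.021, adjusted p 0.075 by limma); its relative rate was lower in YBX1-/- at 7 of 8 time points. It passed with adjusted p of 0.0324 without the 12 h time point and 0.023 among genes with rates above 0 in all libraries. Over 0 to 12 h the value was -0.051 (adjusted p 0.426), and over 0 to 6 h it turned to 0.087 (adjusted p 0.362). Its 95% interval was -0.17 to -0.072, unadjusted. Prdx3 had the largest positive value, 0.090 (SE 0.049, adjusted p 0.51 by limma), and it moved with the time points used. Without 24 h, where the WT rate is 0, it was -0.026, and without 18 h it was 0.15 with adjusted p of 0.0368. Over 0 to 12 h it was 0.098 and over 0 to 6 h 0.18 (adjusted p 0.12 and 0.268). For Prdx1, Prdx5, Prdx6, Txn1, Txn2, Txnrd1 and Gpx1 the values ran from -0.019 to 0.027, and the 7 intervals (95%, unadjusted) together from -0.083 to 0.069. This range is no limit of detection, since Prdx2 and Prdx3 had values outside it and were not called. Several of the small values of the 7 genes changed sign when only 0 to 6 h was fitted.

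The level difference, the mean genotype difference over all time points, passed for 0 of the 10 genes and for 0% of tested genes in each direction by limma, with 2 and 415 at an unadjusted p under 0.05. The 2 were Prdx2 at -1.04 (SE 0.38, unadjusted p 0.0214) and Prdx4 at -2.83 (SE 1.21, unadjusted p 0.0424), both with adjusted p of 0.779. The early (0 to 1 h) and the middle difference (3 and 6 h) passed for 0 of the 10 and 0% of tested genes. At an unadjusted p under 0.05 by limma stood 0 of the 10 in either, against 24 (0.324%) and 216 (2.91%) of the tested genes. The spans were fitted in a single model with a single spread per gene, so early and late differences had the same SE (0.37 for Prdx2). Where the scatter of a gene grows over the chase, this SE is too large early and too small late. The missing early and middle calls therefore do not show that the genotypes were alike. Before the library median was subtracted, 10 of 10 rates were lower in YBX1-/- at 0 h and 10 of 10 at 1 h. Among tested genes 75% and 87.5% were lower at those times, so the lower early rates were shared with most of the transcriptome. At 18 h the count was 5 of 10, against 41.0% of tested genes.

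**Figure D3:**
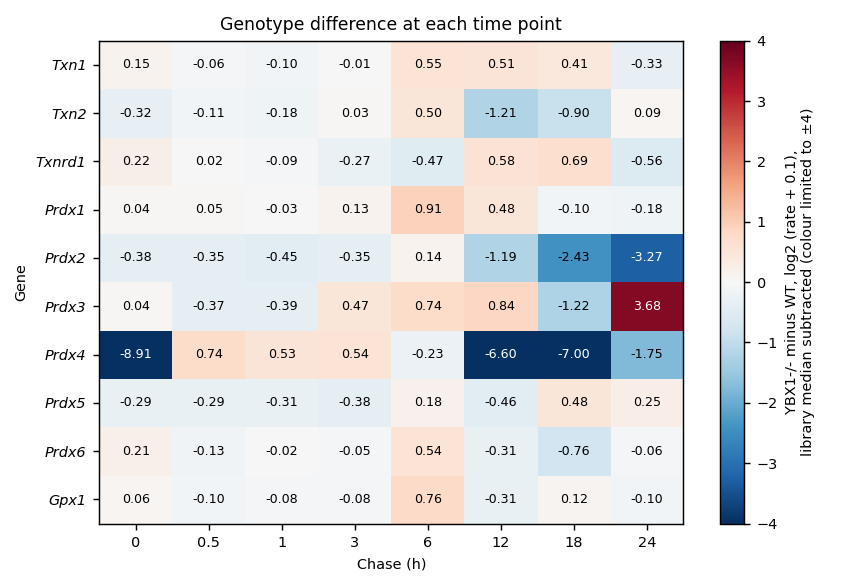
Genotype difference (YBX1-/- minus WT, log2 of rate + 0.1 with the library median subtracted) at each time point, 1 value per gene and time from 1 library of each genotype. Prdx2 went from -1.19 at 12 h to -3.27 at 24 h, the values of Prdx4 are those of a sparse gene with zeros, and the 3.68 of Prdx3 at 24 h is set by a WT rate of 0.

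The late difference, over 12, 18 and 24 h, had an unadjusted p under 0.05 by limma for 2 of the 10 genes and for 1490 tested genes (20.1%). It passed the adjusted threshold for 1 of the 10 genes, with 1.35% of tested genes called lower and 1.69% called higher. This was Prdx2, at -2.29 (SE 0.37, adjusted p 0.028 by limma, lower at 3 of 3 late time points, with values of -1.19, -2.43 and -3.27). The value stayed at -2.29, and the call was lost, without any 1 of the 0, 0.5, 1, 3 or 6 h time points (adjusted p 0.0523 to 0.0845) or without the YBX1-/- library at 0 h (0.0692). It was also lost, at -2.15, with no filter on genes with zeros (0.988). It held without 12, 18 or 24 h, at -2.85, -2.23 and -1.81. For Prdx4 the late value was -5.12 (SE 1.90, adjusted p 0.198 by limma), and the other 8 lay between -0.67 and 1.10.

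Because Prdx2 was the 1 gene called, its surroundings were looked up after its value was seen, and no test is made on them. Its interval overlaps an annotated exon of Junb on the opposite strand. The strand used in counting was not given in the sources used here, so reads of the 2 genes may not be told apart there. The interval of Junb itself, 2.8 kb away, had at 24 h a rate of 0.735% in YBX1-/- and of 0.980% in WT, and its late difference was 0.72. Within 1 Mb, 25 of 34 other tested genes (73.5%) had a late difference below 0, against 58.4% over chromosome 8 and 48.9% over the other chromosomes, and 7 of them (20.6%) were called lower and 0 higher. Over chromosome 8, 29 of 416 tested genes (6.97%) were called lower, and over the other chromosomes 71 of 6995 (1.02%). Rnaseh2a, 16.4 kb from Prdx2, had WT rates of 10.0%, 2.44% and 2.50% at 12, 18 and 24 h, with 0% at all 3 in YBX1-/-. Vps35, a retromer gene 286.3 kb away, had 19.0%, 16% and 13.5% in WT, with 0%, 1.99% and 0.521% in YBX1-/-. The part of the chromosomal position in the difference of Prdx2 was not tested.

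**Figure D4:**
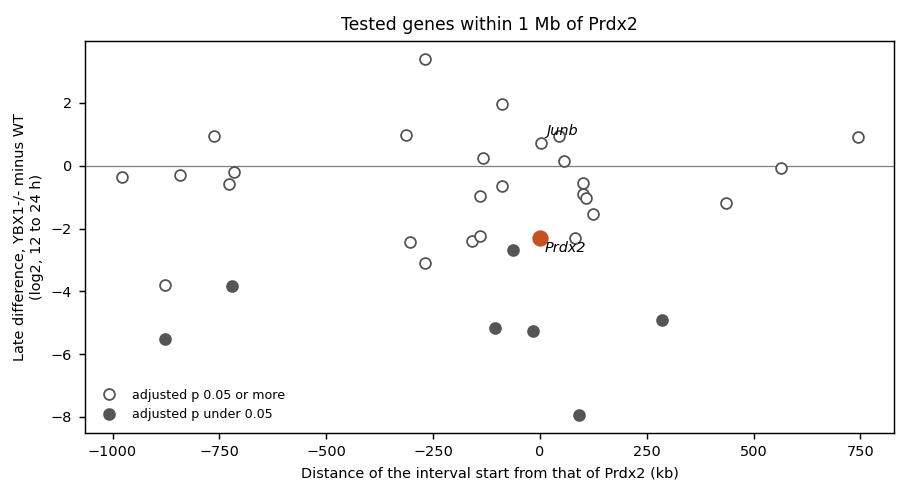
Late difference (YBX1-/- minus WT, log2, 12 to 24 h) of Prdx2 and the 34 other tested genes within 1 Mb against their distance in kb; filled points have an adjusted p under 0.05 by limma. Filled points lie below 0 on both sides of Prdx2 (orange), and Junb, 2.8 kb away, lies at 0.72.

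The deposited table gave several intervals for 7 of the 10 genes. They overlap or share reads in most cases and are not replicates. Shorter and longer intervals of Gpx1, Prdx1 and Prdx2 carried almost the same rates: the 114-base interval of Gpx1 had 43.1% in WT at 0 h against 42.2% for the 207-base one. An interval of Prdx6 that does not overlap the main one (chromosome 1, 161243575 to 161243721) had 36.5% in WT at 0 h and 0.325% at 24 h, with 29.0% and 0.594% in YBX1-/-. The loss was as large as in the main interval. A Prdx5 interval of 4 bases holds no T at all, yet it was deposited with 36.6% in WT and 14.3% in YBX1-/- at 0 h. In all, 277 of 608 different intervals with no T had a rate above 0, so the rate is not a share of the T positions inside an interval. The annotation also holds close copies of Prdx2, Prdx6 and Txn1, named Prdx2-rs3, Prdx6-ps2, Prdx6b and Txn-ps1. The counting of reads shared with them was not given in the sources used here, and the values of these 3 genes are uncertain to that degree. A deposited column for multimapping reads was 0 for all 10 genes.

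Tested genes whose relative rates ran close to those of the 10 over the 16 libraries were found by root mean square difference on the log2 scale. Canx, an endoplasmic reticulum chaperone, ran with Prdx1 at 0.15, and Tmem50a with Txn2 at 0.18. Sra1 ran with Gpx1 at 0.18. Txn1 ran with Chchd2 and Elob at 0.23 each, Prdx5 with Edf1 and Tyrobp at 0.27 each, and Prdx2 with the ribosomal protein gene Rpl22 at 0.49. Among the 10 themselves the closest pairs were Prdx6 with Gpx1 at 0.33 and Txn2 with Prdx6 at 0.34. Between Prdx6 and Gpx1 stood 54 other genes nearer to Prdx6. For Txnrd1, 1245 tested genes were nearer than its closest companion, Gpx1 at 0.84.

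Further genes of the same chemistry were read from 7 lists, with 86 of 103 genes tested. Label fell in 83 of the 86 in WT (96.5%, against 94.7% of all tested genes) and in 82 in YBX1-/- (95.3%, against 92.6%), so the list counts of label loss given below are near the background. The decay and level differences passed for 0 of the 86 by limma, and the median decay difference of the 86 was 0.0064 log2 per h, against 0.0037 over all tested genes. In the late difference 3 of the 86 (3.49%) were called higher and 0 lower, against 1.69% and 1.35% of all tested genes.

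The 3 were Ccs, Idh2 and Selenoh, at late differences of 3.86, 1.64 and 3.95 (adjusted p 0.0369, 0.0411 and 0.0324 by limma). Ccs, the chaperone that loads copper into superoxide dismutase, had 0% in WT at 12, 18 and 24 h, with 2.0%, 1.87% and 0.529% in YBX1-/-. Selenoh, a nuclear selenoprotein, likewise had 0% at all 3 in WT, with 4.38%, 0.575% and 0.945% in YBX1-/-. The size of both differences is set by zeros and the added 0.1. Idh2, which makes NADPH in mitochondria, had 1.19%, 0.680% and 0.442% in WT, with 5.39%, 2.14% and 1.06% in YBX1-/-. All 3 were higher at 3 of 3 late time points. All 3 calls were lost with 0.5 added in place of 0.1, with no filter on zeros, without the YBX1-/- library at 0 h, and without any 1 of the 0 to 6 h time points (adjusted p 0.0611 to 0.123). That of Selenoh was also lost, at 1.86 (adjusted p 0.277), in the interval with the highest coverage on Ts.

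Among thioredoxin relatives and protein disulfide enzymes, label fell in 19 of 21 tested genes in WT and in 20 in YBX1-/-. Erp44, a retention factor of the secretory pathway, had the smallest p in both comparisons, at a decay difference of -0.11 and a level difference of -1.0 (adjusted p 0.417 and 0.779 by limma). Of the peroxiredoxin repair and methionine sulfoxide reductase genes 4 of 8 were tested, and label fell in all 4 in both genotypes. Srxn1, which repairs over-oxidised peroxiredoxins, had a decay difference of 0.0073 (adjusted p 0.962 by limma). In the glutathione system label fell in 19 of 19 tested genes in WT and in 17 in YBX1-/-. Gstt1 had a decay difference of 0.49 (adjusted p 0.213), at a mean CPM of 1.01 and with 2 zeros in WT and 2 in YBX1-/-. Mgst2 had a level difference of 1.12 (adjusted p 0.779).

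Label fell in 6 of 7 superoxide and peroxide enzymes in WT and in 7 in YBX1-/-. In the NRF2 axis it fell in 11 of 11 tested genes in both genotypes, and the median level difference was -0.27, against 0.0093 over all tested genes. None passed, and the smallest p was that of Sqstm1, an autophagy receptor that binds KEAP1, at -0.32 (adjusted p 0.779). Label fell in 10 of 10 tested NADPH suppliers in both genotypes, with G6pdx, the first enzyme of the pentose phosphate pathway, at a level difference of 0.43 (adjusted p 0.779). Among genes of selenoprotein synthesis and other selenoproteins it fell in 14 of 14 in WT and in 13 in YBX1-/-. The adjusted p-values here are those of limma over all 7411 tested genes.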

How the data were processed

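Per the submitters' processing notes, CASAVA and HISAT2 2.1.0 were used, together with the build GRCh38, although samples and gene identifiers are mouse. The authors deposited T-to-C rates as a fraction per interval and library. They also deposited a mean CPM and a mean coverage signal on Ts over the libraries, per the file headers. How conversions were counted was not given in the sources used here, and no unlabelled library was analysed here. Identifiers were matched to symbols for 21148 of 21177 genes, in 86993 rows (74385 different intervals). Sequences and coordinates are from the GENCODE transcripts of GRCm38, counted from 1; the T count equalled the deposited value in 7396 of 7396 tested intervals with a sequence.

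Per gene 1 interval, that of highest mean CPM, was kept, and rates were analysed as log2(percent + 0.1). Models were fitted with limma 3.58.1 (R 4.3.3, with a trend) over 7411 genes: a line over hours per genotype, and, on values with the library median subtracted and time as a factor, the genotype by hours term (decay difference), the genotype term (level difference), and genotype terms for 0 to 1, 3 to 6 and 12 to 24 h. Benjamini-Hochberg adjusted p under 0.05 over all tested genes was the threshold. Half-lives with a floor were fitted with scipy 1.17.1. The decay difference and the half-life with a floor were tried on simulated data with equal scatter at all time points. The late difference was not tried in this way. Named were the 10 genes, list genes past the threshold, up to 4 per list with the smallest p in the decay and level differences, and genes from among the 2 most alike of each; some are not reported here. The 10 genes and the lists were chosen with earlier results of these data known. Alternatives were other added values, filters and intervals, no centring, shorter windows, each time point left out, the YBX1-/- 0 h library left out, and limma without a trend, chosen after seeing the data.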

Additional observations from a re-analysis of the deposited data

Results flagged for a closer look

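The genotype difference of Prdx3 at 24 h, 3.68 on the log2 scale with the library median subtracted, lay far from its other 7 time points, which ran from -1.22 to 0.84. The WT rate at 24 h was 0%. The difference of Gpx1 at 6 h, 0.76, also lay far from the rest of its series, which ran from -0.31 to 0.12. At 6 h the difference was above 0 in 8 of the 10 genes, at 0.91 for Prdx1, 0.74 for Prdx3, 0.55 for Txn1, 0.54 for Prdx6, 0.50 for Txn2, 0.18 for Prdx5 and 0.14 for Prdx2 besides Gpx1. This was the highest count, with 6 at 0 h, 3 at 0.5 h, 1 at 1 h, 4 at 3, 12 and 18 h, and 3 at 24 h. The share of all tested genes above 0 at these times was not counted, so these counts are not read as a trait of the 10 genes. Each of the 10 genes was examined for a time point far from its others, and chance alone marks about 1 in 20 groups.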

How the results depend on the processing

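The decay difference was called for 8 genes, for 1 with 0.01 or 0.5 percentage points added, for 0 with no filter, without the YBX1-/- 0 h library, over 0 to 6 h or with limma without a trend, for 268 over 0 to 12 h, and for 0 to 204 when a time point was left out. The late difference was called for 225 genes, for 106 with 0.5 added, 125 with rates above 0 in all libraries, 0 with no filter, 75 without the YBX1-/- 0 h library, and 13 to 784 when a time point was left out. Of the 10 genes 1 (Prdx2) was called in the late difference, 0 with no filter or without the YBX1-/- 0 h library, and 0 to 1 when a time point was left out. In the decay difference 0 were called, 1 with rates above 0 in all libraries, and 0 to 1 when a time point was left out. The level difference was called for 0 genes, and for 2 with no filter. The early difference was called for 0, for 1 without the YBX1-/- 0 h library and for 0 to 1 when a time point was left out; the middle difference for 0, and for 0 to 6. Label loss was called for 2805 genes in each genotype when rates had to be above 0 in all libraries, because fewer genes were tested.

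With the library median subtracted, label loss is relative to other genes. It was then called for 373 genes in WT and 193 in YBX1-/-, of which 1 and 0 were among the 10. The slopes in WT became 0.013 for Prdx1, 0.15 for Prdx2, 0.16 for Prdx4, 0.069 for Prdx5, 0.099 for Txn1 and 0.016 for Gpx1. In YBX1-/- they became 0.0041 for Prdx1, 0.028 for Prdx2, 0.047 for Prdx4, 0.095 for Prdx5, 0.099 for Txn1, 0.00090 for Txnrd1 and 0.012 for Gpx1. Without that subtraction the decay difference was 0.012 for Prdx1, 0.0010 for Prdx6, 0.020 for Txn1, 0.0050 for Txn2 and 0.017 for Gpx1, and the level difference was -0.18 for Prdx1, -0.21 for Txn1, -0.33 for Txnrd1 and -0.31 for Gpx1.

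Over 0 to 6 h the decay difference was 0.15 for Prdx1, 0.087 for Prdx2, 0.68 for Prdx4, 0.077 for Prdx6, 0.083 for Txn1, 0.12 for Txn2, -0.10 for Txnrd1 and 0.12 for Gpx1. The level difference over 0 to 6 h was 0.11 for Prdx6 and -0.12 for Txnrd1, and label loss of Prdx4 in YBX1-/- was 0.45. Over 0 to 12 h the decay difference was 0.054 for Prdx1, -0.0024 for Prdx5 and 0.051 for Txn1. With no filter it was -0.020 for Prdx5 and -0.044 for Txnrd1, and with rates above 0 in all libraries 0.0059 for Txn1 and 0.0028 for Gpx1. Without the YBX1-/- 0 h library the level difference of Txnrd1 was -0.016. Leaving out a time point gave decay differences of -0.013 to 0.0043 for Prdx1, -0.026 to 0.15 for Prdx3, -0.0072 to 0.030 for Txn1, -0.014 to 0.042 for Txnrd1 and -0.0065 to 0.0014 for Gpx1. It gave level differences of -0.16 to 0.026 for Prdx6, -0.083 to 0.096 for Txnrd1 and -0.070 to 0.082 for Gpx1. The cause of these changes was not tested.

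A straight line on the log2 scale in place of the floor gave half-lives of 9.44 h for Prdx2, 2.83 h for Prdx3, 10.0 h for Prdx4, 5.29 h for Prdx5 and 3.86 h for Txnrd1 in WT. In YBX1-/- it gave 4.28 h for Prdx1, 4.78 h for Prdx2, 4.11 h for Prdx3, 7.21 h for Txn1 and 4.23 h for Txnrd1. Leaving out a time point gave 1.49 to 2.0 h for Txnrd1 in YBX1-/- and 3.17 to 3.98 h for Gpx1 in WT. The fits between genotypes had the time point as a factor, which pairs the 2 libraries of each time point.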
